A study of Sus scrofa with 4 samples.

Results

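Genes of vesicle trafficking and the secretory pathway were followed in fibroblasts grown from deep and shallow skin wounds of Duroc pigs. The members were taken by gene symbol from the array's annotation: RAB, SEC, ARF, SNX and STX genes with a number, VPS, VAMP, TMED and SAR1 genes, the coatomer subunits, and the SSR and SRP genes with a number. This gave 124 of the 6765 genes with a symbol of their own on the array, carried by 198 of 23999 probesets, and each gene was represented by its brightest probeset. By role, 50 were placed between the endoplasmic reticulum (ER) and the Golgi, 51 at endosomes and 16 in exocytosis at the plasma membrane. The other 7 were placed apart because they act in lipid transfer or chromatin or have no settled place. Of the 124, 117 passed the filter on dim signals and 7 did not.

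The deep group held 2 arrays and the shallow group held 2 arrays, all from dermal cone fibroblasts of wounds on the backs of 2 Duroc pigs, biopsied 20 weeks after wounding and cultured to confluence before total RNA was taken. Each pig gave 1 deep and 1 shallow culture, called here pig 1 and pig 2, and the pairing rests on reading the numbers in the sample titles as the listing order. The cultures were grown in serum-containing medium, so the values describe cells kept in a dish and not the wound itself.

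Proteins bound for secretion enter the ER through a channel after their signal sequence is read, leave it in vesicles with a COPII coat, and return escaped residents from the Golgi in vesicles with a COPI coat. Endosomes sort what the cell takes up, sending it back to the surface or the Golgi or on to the lysosome. RAB and ARF proteins are GTPases that mark membranes and recruit coats and tethers, and SNAREs drive the fusion of membranes. Fibroblasts send large amounts of collagen and other matrix proteins along this route, and procollagen is too long for a standard COPII vesicle, which makes the COPII coat a point of interest in skin repair.

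Signals are MAS5 intensity units, a linear brightness scale on which levels of different probesets cannot be set against each other. The arrays had been scaled to the same trimmed mean, 250.1 units. Their quality differed by depth: the actin control probesets gave a 3'/5' signal ratio of 3.28 and 6.10 in the deep cultures (pig 1, then pig 2), against 1.96 and 2.41 in the shallow cultures. All 10 named fibroblast markers lay above the controls for absent transcripts on all arrays, with a summed signal of 60586 and 95008 on the deep arrays and 38414 and 44575 on the shallow arrays. The 10 named epithelial markers summed to 364 and 229 on the deep arrays and to 8633 and 261 on the shallow arrays, and on the shallow array of pig 1 none was below the absent controls. The epithelial cadherin CDH1 read 17.7 and 7.15 on the deep arrays, below those controls, and 1084 and 10.7 on the shallow arrays, below them in pig 2. The 5 named markers of smooth muscle and pericytes summed to 4696 and 3410 on the deep arrays and to 654 and 1148 on the shallow arrays. Most of each sum was ACTG2, at 4269 and 2914 in deep against 491.5 and 716.5 in shallow. CNN1 and DES were also higher on both deep arrays. RGS5 overlapped between depths, at 187 and 218 in deep against 50.7 and 336.5 in shallow, and so did HIGD1B. Leukocyte and endothelial markers summed to at most 140 and 739 on any array. In a culture, fewer cells of a type and less RNA per cell cannot be told apart. What these differences between arrays contribute to the values below was not tested. A value without an array, where given, leaves out all traits of that culture together and cannot single out any of them.

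Trafficking genes as a whole were close between deep and shallow cultures. No member changed at an adjusted p under 0.05 in limma with the pig as a block, in either direction, against 0.303% of all 5272 genes that rose and 0.0948% that fell (the smallest adjusted p of a member, by its brightest probeset, was 0.198). At an unadjusted p under 0.05 there were 5 members on the higher side, 4.27% of those tested against 7.40% of all genes, and 2 on the lower side, 1.71% against 8.06%. The median log2 difference, deep minus shallow, was 0.10 over the 117 members and -0.04 over all genes. Including the 7 dim members it was also 0.10.

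The interval around each difference says how much could have been missed. Its 95% half-width was 0.64 on the log2 scale at the median member, and for 72 members (61.5%) the whole interval lay within 2-fold either way, against 41.7% of all genes. A mean difference of at least 2-fold was measured for 3 members (2.56%), SEC31B, VPS37D and SNX24, against 9.12% of all genes. The test draws spread from probesets of like brightness, so brighter probesets get narrower intervals. The members were brighter than all genes tested. Their median signal was 694 and 677 on the deep arrays and 688 and 621 on the shallow arrays (pig 1, then pig 2). Over all genes it was 312 and 309 on the deep arrays and 353 and 321 on the shallow arrays. What brightness contributes to the shares above was not tested. The median gap of a member was 0.23 between the single deep arrays and 0.22 between the single shallow arrays, and the median size of the difference between the means of the depths was 0.23. A mean of 2 arrays varies less than a single array, so these gaps are not on an equal footing.

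Non-overlap of the groups was counted as a description, since an exact permutation test of 2 arrays against 2 cannot go below a two-sided p of 0.333. Both deep arrays lay above both shallow arrays for 35 members, 29.9% of those tested, against 23.7% of all genes. Both lay below for 24 members, 20.5%, against 28.4% of all genes. With each array centred on its median these counts were 26 and 26, so higher members no longer outnumbered lower ones under that scaling. The shares of all genes were counted in the main setting only, here and for the role groups below. Member counts under other settings therefore have no background, and whether members lean higher than all genes there was not tested. Differences of at least 1.5-fold the same way in each pig were found for 2 members upward, VPS37D and TMED3, against 5.84% of all genes, and for 2 downward, SEC23B and SEC11C, against 5.86%.

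**Figure D1:**
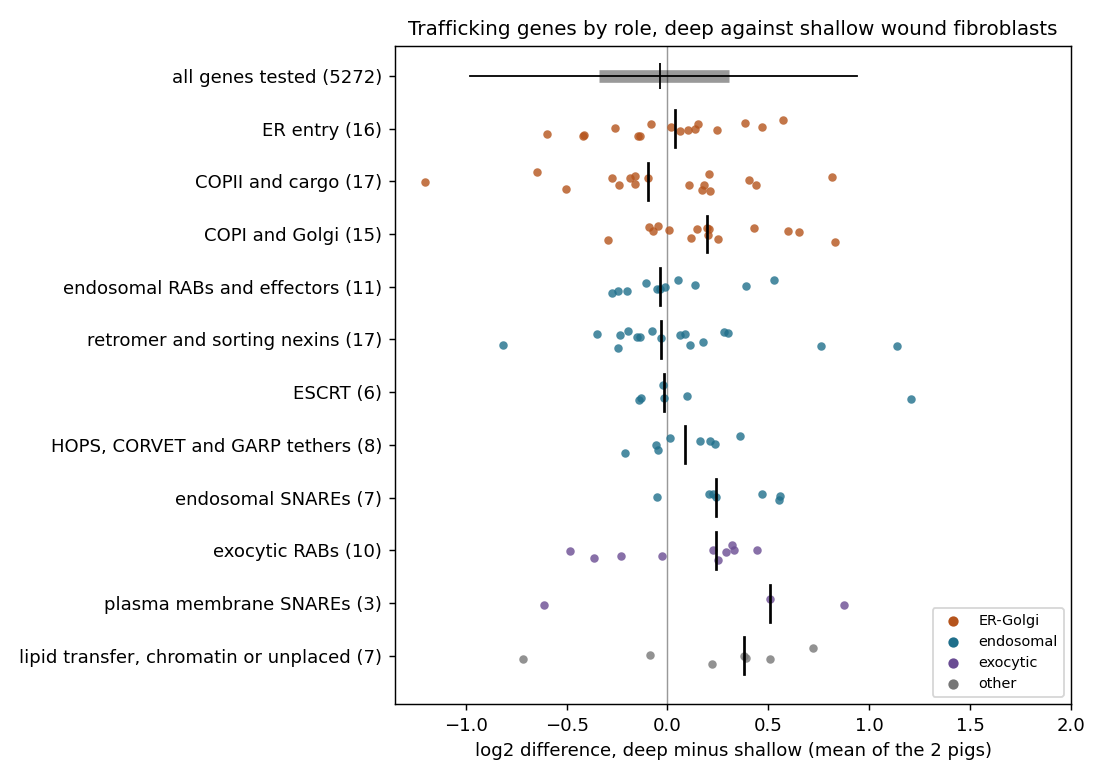
The log2 difference, deep minus shallow, of each member past the filter, by role, with the number of genes in brackets. A point is a gene, a black bar the median of its row, and the top row shows all 5272 genes tested with the 5th to 95th percentile as a line (-0.98 to 0.94), the quartiles as a grey bar (-0.34 to 0.30) and the median as a tick. Most members sit inside the quartiles of all genes, and the largest differences belong to SEC31B (-1.20), VPS37D (1.21) and SNX24 (1.14).

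The 48 ER-Golgi members tested had a median difference of 0.10 (0.036 under quantile normalization), with both deep arrays above both shallow arrays for 13 (27.1%, against 23.7% of all genes) and below for 12 (25%, against 28.4%). Entry into the ER is served by the signal recognition particle (SRP), the SEC61 channel with SEC62 and SEC63, the translocon-associated SSR proteins and the signal peptidase. The 16 members of this step had a median difference of 0.04, with both deep arrays above both shallow arrays for 2 (12.5%, against 23.7% of all genes) and below for 6 (37.5%, against 28.4%). The 2 that were higher were translocon-associated subunits. SSR4 read 5013 and 6909 in deep cultures of pig 1 and pig 2, against 3871 and 4040 in shallow cultures. The groups did not overlap, and the log2 difference was 0.57 ± 0.29 (SE, limma, adjusted p = 0.433). SSR2 read 2880 and 3758 in deep against 2269 and 2493 in shallow (0.47 ± 0.27). Their partner SSR3 read 1479 and 1610 in deep against 1652 and 1609 in shallow, with no separation of the depths.

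Lower readings at this step came from a peptidase subunit and from the SRP. SEC11C, a catalytic subunit of the signal peptidase, read 988 and 888 in deep against 1506 and 1333 in shallow. That is a log2 difference of -0.60 ± 0.26 (limma, adjusted p = 0.368), nearly equal in the pigs at -0.61 and -0.59, and its 95% interval ran from -1.20 to 0.01. SRP54, the GTPase that binds the signal sequence, read 1007 and 843 in deep against 1083 and 1401 in shallow (-0.42 ± 0.29). SRP14 read 2338 and 1529 in deep against 2626 and 2411 in shallow (-0.41 ± 0.28). The other SRP subunit with separate groups was SRP72 (-0.26). Of its dimmer probesets, the brighter overlapped between depths (-0.15). The dimmest gave -1.02, but on deep pig 2 it read 23.05, below the highest absent control there, 30.9. SRP9, SRP19 and SRP68 overlapped, with differences of 0.10, 0.15 and 0.06. Deep pig 2, the array with the highest actin ratio, held the lowest reading of SRP9, SRP14, SRP54 and SRP72. It also held the highest reading of SRP19 and SRP68. What that ratio contributes to these readings was not tested.

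Of the SEC61 channel genes, SEC61G alone had separate groups, with 4119 and 4485 in deep against 4712 and 4746 in shallow (-0.14 ± 0.28). SEC61B read 2788 and 3339 in deep against 2990 and 3049 in shallow (0.02 ± 0.27, 95% interval -0.62 to 0.65). The pore subunit SEC61A1 read 731 and 1650 in deep against 847 and 834 in shallow, so its difference of 0.39 ± 0.34 came from the deep array of pig 2. Leaving that array out gave -0.20, and leaving out the deep array of pig 1 instead gave 0.97. Of its dimmer probesets, the brighter read 84.7 and 81.9 in deep against 52.1 and 79.2 in shallow (0.38). The dimmest read 22.3 and 19.2 in deep against 35.6 and 54.5 in shallow (-1.09), and on deep pig 2 it was below the highest absent control. SEC62 read 2188 and 2310 in deep against 1553 and 2313 in shallow, where the shallow array of pig 1 alone was low. SEC63 overlapped (0.14), and SEC11A, the other catalytic peptidase subunit, had separate groups that lay close (-0.15).

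COPII vesicles are built when the GTPase SAR1 recruits an inner coat of SEC23 and SEC24 and an outer coat of SEC13 and SEC31, and p24 proteins, the TMED genes, help load cargo. This step had 17 members with a median difference of -0.10, 3 with both deep arrays above the shallow arrays (17.6%, against 23.7% of all genes) and 6 with both below (35.3%, against 28.4%). TMED3, a p24 protein, read 858 and 1031 in deep against 509 and 560 in shallow, with the smallest p of the ER-Golgi members by their brightest probesets. Its log2 difference was 0.82 ± 0.27 (limma, adjusted p = 0.231, unadjusted p = 0.0156), a 1.76-fold mean difference, and it stayed between 0.68 and 0.95 with any 1 array left out. TMED5 differed in the opposite direction, with 1227 and 853 in deep against 1714 and 1229 in shallow, apart by 2 units only (-0.50 ± 0.26). The other 2 TMED5 probesets past the filter gave -0.57 and -0.46.

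The remaining p24 genes were close to even. TMED2 read 5144 and 5776 in deep against 4521 and 5184 in shallow, which overlap, and its difference of 0.17 was -0.13 under quantile normalization. TMED10 read 3096 and 3128 in deep against 3358 and 3608 in shallow (-0.16). TMED4 and TMED7 overlapped, at -0.16 and -0.19. The family thus spanned -0.50 to 0.82 with no common direction.

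SEC23B, an inner coat subunit, read 625 and 549 in deep against 1013 and 832 in shallow. The groups were apart in each pig, with differences of -0.70 and -0.60, a mean of -0.65 ± 0.27 (limma, adjusted p = 0.336, unadjusted p = 0.0407). Its close relative SEC23A, whose loss in humans impairs collagen secretion, read 3165 and 2770 in deep against 2365 and 2772 in shallow. SEC23A differed by 0.42 in pig 1 and by -0.0010 in pig 2, so the depths overlapped. The adaptor SEC24D, also linked to collagen export in humans and zebrafish, read 1674 and 1428 in deep against 1133 and 1583 in shallow (0.21 ± 0.29), and SEC24C differed by -0.24.

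The outer coat gene SEC31A read 3041 and 2897 in deep against 2008 and 2505 in shallow (0.40 ± 0.28, limma, adjusted p = 0.566). Its 2 dimmer probesets gave 0.42 and 0.93, so all its probesets were higher in deep. SEC13 read 679 and 758 in deep against 861 and 682 in shallow, which overlap (-0.10 ± 0.28). The GTPase SAR1A read 1644 and 2006 in deep against 1141 and 1577 in shallow (0.44 ± 0.26), and its other probesets gave 0.03 and 0.19. SAR1B read 1983 and 1665 in deep against 2217 and 2183 in shallow (-0.28 ± 0.27). SEC31B read 36.2 and 9.59 in deep against 46.1 and 39.9 in shallow, and the reading on the deep array of pig 2 was below the highest absent control there, 30.9, so only 1 of 2 deep arrays measured it. Its difference of -1.20 was -0.24 without that array.

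Related genes are set beside each other here in 12 pairs, as a description chosen after their values were seen. The gap within a pair had the same sign in both pigs for 9 pairs and was at least 1.5-fold in each pig for 5. No share over other gene pairs was counted, so these counts have no background. Among the 5 was SEC31A over SEC31B, whose gap in pig 2 rests on a SEC31B reading below the highest absent control. The difference of SEC23A exceeded that of SEC23B by 1.12 in pig 1 and 0.60 in pig 2 on the log2 scale. SAR1A exceeded SAR1B by 0.69 and 0.74, and SEC11A exceeded SEC11C by 0.48 and 0.43. For SEC24D over SEC24C the gap was 0.83 in pig 1 but 0.07 in pig 2, and for COPZ2 over COPZ1 it was 1.31 and 0.03. COPG2 and COPG1 were both higher in deep by the mean, with gaps of 0.42 and -0.06, and the gaps of RAB11A over RAB11B were -0.06 and 0.02. With 2 arrays a group these gaps were not tested.

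**Figure D2:**
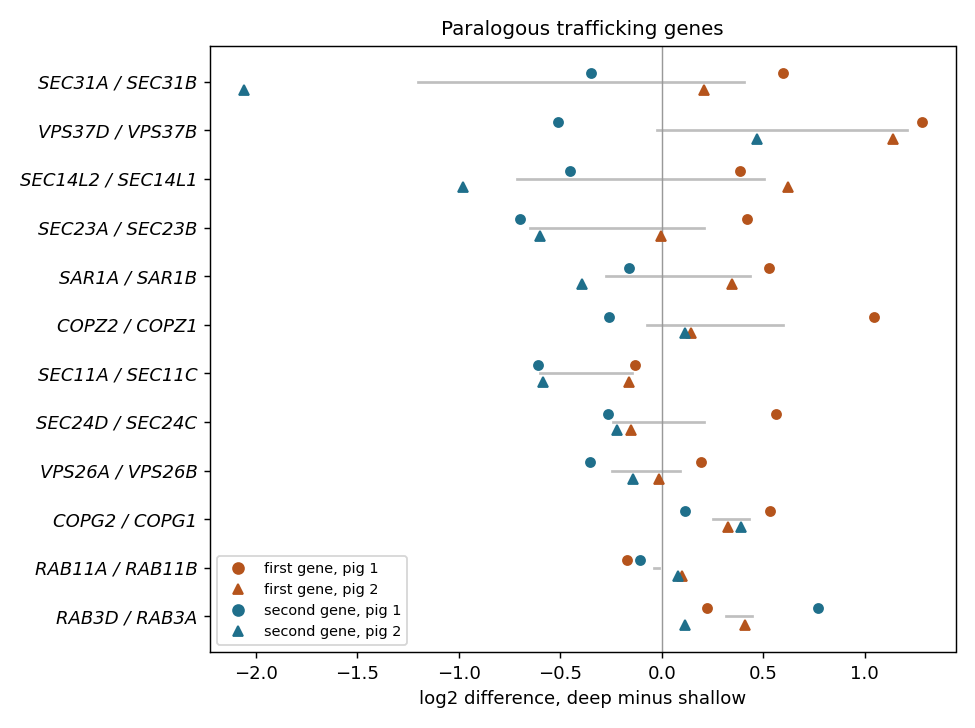
The log2 difference, deep minus shallow, of 12 pairs of related genes, with the first-named gene in orange and the second in blue, circles for pig 1 and triangles for pig 2. Grey lines join the means over the pigs; SAR1A and SEC23A lie right of SAR1B and SEC23B in each pig, whereas the RAB11 pair overlaps.

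The COPI coat and Golgi group held 17 genes, 15 past the filter, with a median difference of 0.19. Both deep arrays lay above both shallow arrays for 8 genes (53.3%, against 23.7% of all genes) and below for none. With each array centred on its median or with quantile normalization 5 were above and none below, and the median was 0.16 or 0.11. With averaged probesets 7 were above and 1 below. Leaving out shallow pig 1, the array with the epithelial signal, gave a median of 0.096, and leaving out any 1 array put 1 to 3 genes below.

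ARF4, a small GTPase of the early Golgi, read 6390 and 8445 in deep against 4416 and 4943 in shallow. The groups were apart, with a log2 difference of 0.65 ± 0.29 (limma, adjusted p = 0.364). STX5, the SNARE for fusion at the Golgi, read 272 and 461 in deep against 190 and 209 in shallow (0.83 ± 0.31, limma, adjusted p = 0.294, unadjusted p = 0.0285). Its difference was larger in pig 2, 1.14, than in pig 1, 0.51, and it came to 1.21 with deep pig 1 left out and to 0.45 with deep pig 2 left out. A dimmer STX5 probeset gave 0.18 and another 0.80, the last with opposite signs in the pigs.

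The coatomer subunits were mostly even. COPZ2 read 1115 and 1060 in deep against 540 and 957 in shallow (0.60 ± 0.31), so the shallow array of pig 1, which carried the epithelial signal, was the low one. Without that array the difference was 0.18, and without the shallow array of pig 2 it was 1.01 (limma, adjusted p = 0.0258 in that fit without a block). COPG2 read 547 and 608 in deep against 378 and 484 in shallow (0.43 ± 0.27). COPA, COPB1, COPG1 and COPZ1 overlapped between depths, with differences of 0.15, 0.01, 0.25 and -0.07. COPB2 did not pass the filter, at 29.2 and 22.4 in deep against 24.7 and 23.2 in shallow.

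Among the GTPases of the ER-Golgi step, RAB1A, which tethers vesicles arriving at the Golgi, read 3773 and 3493 in deep against 3051 and 3270 in shallow (0.20 ± 0.27). Its second probeset past the filter gave -0.0041. RAB2A read 2767 and 2649 in deep against 2085 and 2647 in shallow, a separation that was 1 unit wide in pig 2. A dimmer RAB2A probeset read 108 and 278 in deep against 61.6 and 78.7 in shallow (1.32, limma, adjusted p = 0.188, unadjusted p = 0.00896). RAB18 differed by 0.19 and ARF5 by 0.12, both with separate groups. ARF1, which starts COPI coat assembly, read 2819 and 3444 in deep against 3565 and 2916 in shallow, opposite in the pigs (-0.05 ± 0.29). ARF2 differed by -0.30 and STX18 by -0.09, and both overlapped.

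**Figure D3:**
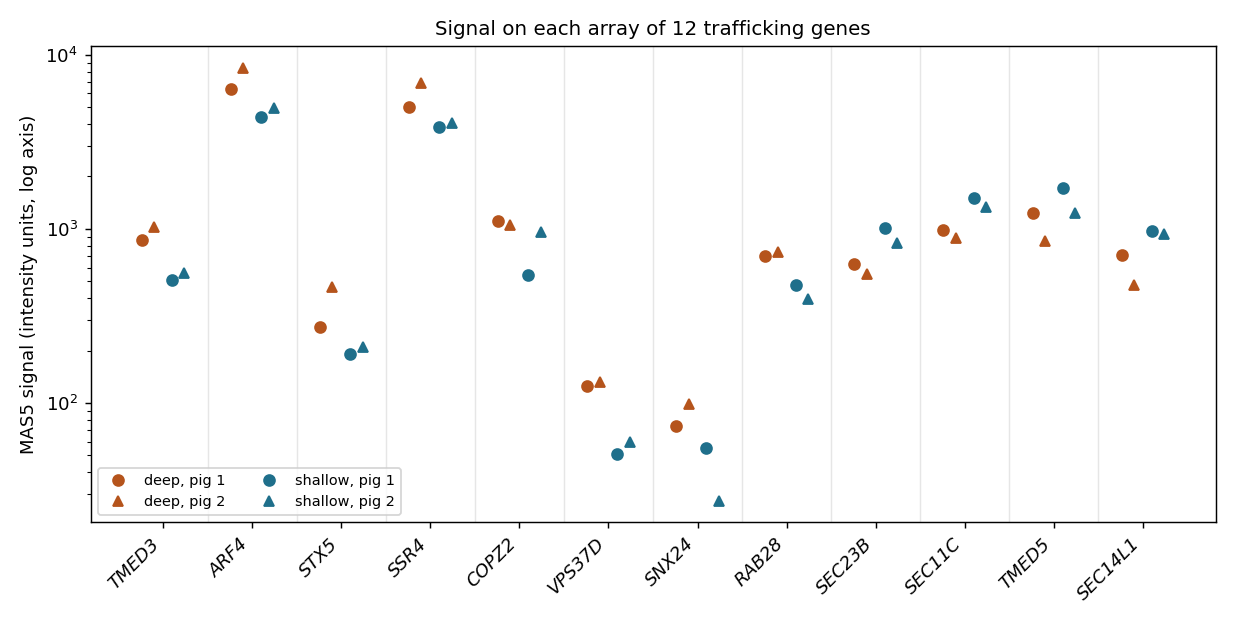
MAS5 signal on a log axis for 12 trafficking genes on each array, deep in orange at the left and shallow in blue at the right of each column, circles for pig 1 and triangles for pig 2. The deep points of TMED3 (858 and 1031) stand above its shallow points (509 and 560), and those of SEC23B (625 and 549) below (1013 and 832), while COPZ2 has its low reading on the shallow array of pig 1 (540).

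At endosomes, 51 members were named and 49 passed the filter. Their median difference was 0.01, and both deep arrays lay above both shallow arrays for 15 (30.6%, against 23.7% of all genes) and below for 7 (14.3%, against 28.4%). With each array centred on its median the counts were 9 above and 9 below, and the median was -0.02. Of the RABs best known as marks of this route, RAB7A and RAB11A differed little, and RAB5A was not among the members. RAB7A, the GTPase of late endosomes, read 1133 and 1262 in deep against 1179 and 1300 in shallow (-0.05 ± 0.26), with a 95% interval from -0.66 to 0.56. RAB11A, of recycling endosomes, read 2247 and 2243 in deep against 2528 and 2094 in shallow (-0.04 ± 0.27). RAB14, RAB24 and RAB35 had both deep arrays below the shallow arrays, by -0.27, -0.20 and -0.25.

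Of the 11 endosomal RAB and ARF genes tested, 2 had both deep arrays above (18.2%, against 23.7% of all genes) and 3 had both below (27.3%, against 28.4%). Neither share exceeded that of all genes. RAB32, which acts in the making of lysosome-related organelles, read 523 and 689 in deep against 343 and 507 in shallow (0.53 ± 0.27, limma, adjusted p = 0.444), but its second probeset gave -0.05. RAB4B read 86.8 and 113 in deep against 74.3 and 76.9 in shallow (0.39 ± 0.36). ARF6 and RAB9A had opposite signs in the pigs. RAB9A, which serves transport from late endosomes to the Golgi, read 557 and 407 in deep against 313 and 600 in shallow.

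Retromer and the sorting nexins pull cargo back from endosomes. VPS29 and VPS26A, core retromer subunits, differed by 0.18 and 0.09, and VPS26B by -0.25. VPS26A read 1169 and 1230 in deep against 1024 and 1243 in shallow, so it overlapped. SNX1 read 599 and 677 in deep against 592 and 587 in shallow (0.11), SNX3 differed by -0.08, and SNX5 and SNX6 by -0.15 and -0.20 with opposite signs in the pigs. These genes thus differed by -0.25 to 0.18 on the log2 scale. The retromer gene VPS35 and the nexin SNX2 were not among the members.

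The wide differences of this group belonged to less studied nexins on dimmer probesets. SNX24 read 73.6 and 99.2 in deep against 54.8 and 27.5 in shallow (1.14 ± 0.47, limma, adjusted p = 0.340, unadjusted p = 0.0418). Leaving out shallow pig 1 gave 1.64, and leaving out shallow pig 2, where the low reading lay, gave 0.64. SNX21 read 70.4 and 57.8 in deep against 102 and 123 in shallow (-0.81 ± 0.37, limma, adjusted p = 0.388). SNX10, known for its part in osteoclasts, read 209 and 124 in deep against 235 and 38.6 in shallow, so the depths overlapped. Its difference of 0.76 was 2.06 when shallow pig 1 was left out (limma, adjusted p = 0.017 in that fit without a block) and -0.54 when shallow pig 2 was left out. SNX22 read 3667 and 5098 in deep against 3356 and 3664 in shallow (0.30 ± 0.28), narrowly apart. On the deep array of pig 2, SNX8 and SNX11 were below the highest absent control, at 27.6 and 28.2.

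ESCRT complexes bud cargo into the endosome's interior. The member with the largest difference and the smallest p among all 117, by brightest probeset, was VPS37D, a variant subunit of ESCRT-I. VPS37D read 124 and 132 in deep against 51.2 and 59.9 in shallow, a 2.31-fold mean difference with the groups well apart. The log2 difference was 1.21 ± 0.36 (limma, adjusted p = 0.198, unadjusted p = 0.0101), at 1.28 in pig 1 and 1.14 in pig 2. It stayed between 1.10 and 1.32 with any 1 array left out, so no array alone set it. The other ESCRT genes taken by the symbol rule had smaller differences: VPS37B read 90.0 and 94.4 in deep against 128 and 68.3 in shallow (-0.02), and VPS4A, VPS25, VPS28 and VPS36 differed by 0.10, -0.14, -0.01 and -0.13. All 5 overlapped between depths. Of the ESCRT genes outside that rule, SNF8, CHMP1A, VTA1 and CHMP5 differed by -0.44, -0.29, -0.16 and -0.12. CHMP2B was even at 0.02, and CHMP2A, STAM, CHMP1B and PDCD6IP differed by 0.31, 0.43, 0.43 and 0.57. None of them passed the threshold.

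Tethers of the HOPS, CORVET and GARP complexes, which dock endosomes and lysosomes or hold vesicles at the Golgi, differed by -0.21 to 0.36 over 8 genes. VPS41 read 636 and 522 in deep against 475 and 502 in shallow (0.24 ± 0.28), and VPS45, a partner of endosomal SNAREs, read 448 and 414 in deep against 365 and 405 in shallow (0.16). VPS11, VPS16, VPS18, VPS33A, VPS39 and VPS52 overlapped. For VPS18 the difference of 0.36 became -0.27 when its probesets were averaged.

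Endosomal SNAREs fuse carriers that arrive at endosomes. Of 7 tested, 5 read higher on each deep array than on either shallow array (71.4%, against 23.7% of all genes) and none lower, with a median of 0.24. With each array centred on its median 2 were above and none below. STX6, a SNARE of the trans-Golgi network and endosomes, read 376 and 426 in deep against 234 and 317 in shallow (0.56 ± 0.28, limma, adjusted p = 0.443). STX10 read 448 and 433 in deep against 297 and 342 in shallow (0.47 ± 0.28), but its second probeset gave -0.25. VAMP3, VAMP8 and STX8 were nearer even, at 0.23, 0.24 and 0.20, with readings for VAMP8 of 1534 and 1572 in deep against 1169 and 1473 in shallow. In each of these 5 genes the shallow array of pig 1 was the lowest, and it was the array with the epithelial signal. Without it the median of the group was 0.08, and without the shallow array of pig 2 it was 0.40.

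STX16 was the least stable of the SNAREs. It read 59.3 and 63.4 in deep against 91.4 and 19.2 in shallow, so its difference of 0.55 came to 1.68 with shallow pig 1 left out and to -0.58 with shallow pig 2 left out. VAMP7 had opposite signs in the pigs (-0.05).

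**Figure D4:**
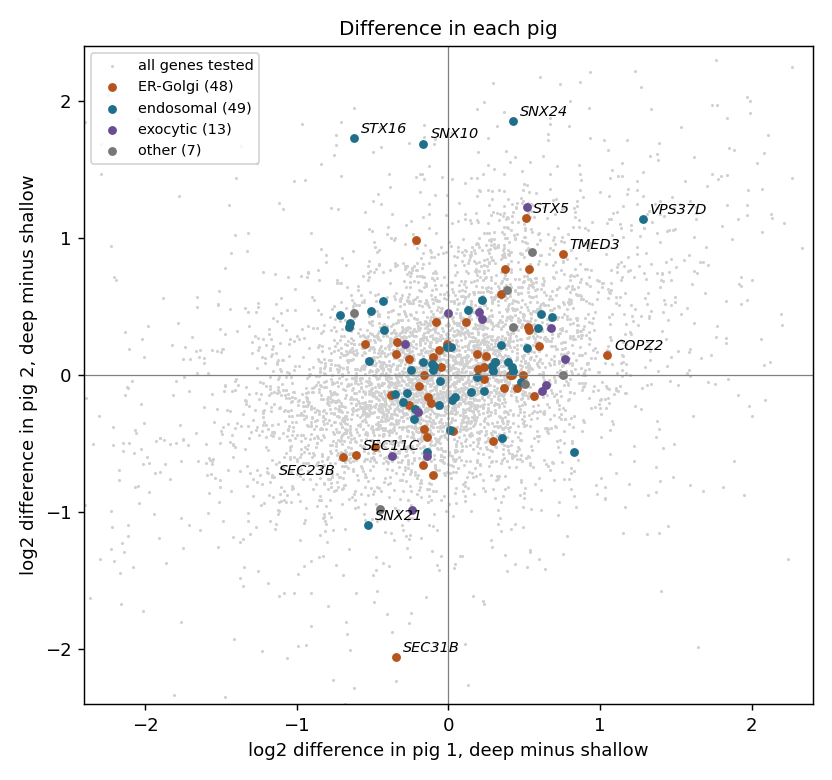
The log2 difference in pig 1 (horizontal axis) against that in pig 2 (vertical axis), deep minus shallow, for members by role (coloured) and all genes tested (grey; 143 genes beyond 2.4 on either axis are not drawn). VPS37D and TMED3 lie far out in the upper right, where both pigs were higher in deep, SEC23B and SEC11C lie in the lower left, and SNX10 and STX16 were high in pig 2 only.

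The 13 members tested that were placed with exocytosis were genes with RAB symbols and SNAREs of the plasma membrane. They included 4 with both deep arrays above (30.8%, against 23.7% of all genes) and 4 with both below the shallow arrays (30.8%, against 28.4%). RAB34 read 532 and 412 in deep against 688 and 621 in shallow (-0.48 ± 0.27, limma, adjusted p = 0.481). RAB23, placed here although it is known for its part in cilia and hedgehog signalling, differed by -0.37, and its other probesets by -0.33 and -0.55. RAB10, which drives exocytic carriers to the surface, read 1791 and 1552 in deep against 2053 and 1868 in shallow (-0.23), although its 3 dimmer probesets gave -0.12, 0.0046 and 0.14. RAB13 and RAB3D were the RABs with both deep arrays above, by 0.33 and 0.32.

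The SNAREs of the plasma membrane split. STX4, the surface SNARE of most cells, read 274 and 189 in deep against 323 and 374 in shallow (-0.61 ± 0.32, limma, adjusted p = 0.445). Its second probeset gave -0.95, but on deep pig 2 it read 24.7, below the highest absent control there, 30.9. VAMP2 read 50.1 and 82.8 in deep against 34.9 and 35.3 in shallow (0.88 ± 0.43, limma, adjusted p = 0.427). STX11 read 298 and 362 in deep against 187 and 285 in shallow (0.51 ± 0.29). RAB8A, RAB3A, RAB3IL1, RAB3GAP1 and RAB3GAP2 overlapped between depths, with differences of -0.03 to 0.44.

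Among the 7 genes placed apart, RAB28 read 694 and 741 in deep against 475 and 398 in shallow (0.72 ± 0.28, limma, adjusted p = 0.301, unadjusted p = 0.0307). The second RAB28 probeset, of similar brightness, read 521 and 542 in deep against 522 and 548 in shallow, a difference of -0.01, so the probesets disagree. SEC14L1, of a family of lipid-transfer proteins, read 709 and 477 in deep against 969 and 941 in shallow (-0.71 ± 0.28, limma, adjusted p = 0.315, unadjusted p = 0.0347), whereas SEC14L2 differed by 0.51. VPS13C and VPS13D, lipid-transfer proteins at contact sites, overlapped (0.38 and 0.22). VPS72, a chromatin-remodelling subunit despite its name, overlapped at -0.09, and RAB40C differed by 0.39 with separate groups.

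Of 52 members with several probesets, 41 had more than 1 past the filter, and in 17 of these the probesets differed in sign. These were COPB1, RAB10, RAB1A, RAB24, RAB28, RAB32, RAB3GAP2, SEC61A1, SNX8, SNX17, STX10, TMED4, TMED7, VPS4A, VPS16, VPS18 and VPS39, so their signs rest on the choice of probeset.

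The 7 dim members were not tested. RAB19, RAB26 and VPS53 were below the highest absent control on all 4 arrays, and RAB15 and RAB27B on 3. RAB3IP read 1.24 and 22.7 in deep against 105 and 11.98 in shallow, above that control on the shallow array of pig 1 alone, where the epithelial markers were high. COPB2 is given above.

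Genes of the same routes that the symbol rule did not take were tested in the same fit. Of 54 other ER-Golgi genes tested, 42 other endosomal genes and 17 other genes of fusion and exocytosis, none passed an adjusted p of 0.05 in limma. At an unadjusted p under 0.05, 1 ER-Golgi gene was on the higher side and 2 on the lower (1.85% and 3.70%), 1 and 3 of the endosomal genes (2.38% and 7.14%), and 2 and 2 of the fusion genes (11.8% each), against 7.40% and 8.06% of all genes. Their medians were 0.02, -0.05 and -0.12. SPCS3, a signal peptidase subunit like SEC11C, read 638 and 602 in deep against 1453 and 989 in shallow (-0.95 ± 0.28, limma, adjusted p = 0.188). The endosome adaptor APPL2 read 657 and 738 in deep against 360 and 461 in shallow (0.77 ± 0.27, limma, adjusted p = 0.258). The 3 genes of the endosomal list on the lower side were RABEP2 (-1.16), DNM1L (-0.77) and ZFYVE16 (-0.75). DNM1L was on that list although it is best known for mitochondrial fission. RABEP2 read 22.2 and 32.0 in deep, barely above the highest absent controls there, 21.8 and 30.9.

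The gene nearest the threshold was SNAP25, a SNARE best known from neurons. It read 319 and 419 in deep against 42.1 and 144 in shallow, a log2 difference of 2.23 ± 0.40 (limma, adjusted p = 0.0741). It passed with the crossed pairing (limma, adjusted p = 0.0485) and with a stricter filter on dim probesets (limma, adjusted p = 0.0211). Those settings called 202 and 217 probesets over the whole array, against 49 in the main fit. The difference was 1.34 with shallow pig 1 left out and 3.12 with shallow pig 2 left out. The remaining pathway genes counted above by unadjusted p were COG8 (1.21) and RABAC1 (0.69) on the higher side. On the lower side they were ARFGEF2 (-0.73), RABGGTB (-0.69) and RALA (-0.77). COG8 overlapped between depths, at 29.9 and 118 in deep against 18.9 and 34.8 in shallow, so deep pig 2 alone was high. Among other genes of general traffic, KDELR1 to KDELR3, SURF4, TRAM1 and the clathrin chains CLTA and CLTC all differed by -0.19 to 0.22.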

How the data were processed

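Total RNA of 4 fibroblast cultures was labelled with biotin and hybridized to a porcine Affymetrix expression array, per the labels. The deposited values are signal intensities on a linear scale, and the submitters' processing notes name GCOS 1.0 and MAS5 as the software behind them. From the deposited intensity values, 124 control probesets were left out, signals under 1 were set to 1 (1 member value), and log2 was taken. Probesets with a mean at or above the 40th percentile (signal 27.1) were kept, 14399 of 23999. In the platform annotation 10069 probesets carry 1 symbol, 198 carry several and 13732 carry none. For 196 of the member probesets the gene identifier is in the RefSeq gene table, and no symbol differed there. A probeset counted as not above background where it lay below the highest of 23 controls for absent transcripts on that array.

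The test of deep against shallow was limma's moderated test (limma 3.58.1, R 4.3.3; lmFit, then eBayes with trend), in which each pig was a block, adjusted by Benjamini-Hochberg over all 14399 probesets. The block follows the series' own description of wounds on the same animals. Same-pig deviations had a correlation of -0.01, so the values show no mark of it. The block leaves 1 residual degree of freedom, to which moderation added 6.88. With 2 cultures a group and the block, the p-values measure how far the deep minus shallow difference varied between the 2 pigs. Most of their degrees of freedom come from other probesets through the moderation. No depth of reads exists for arrays, and their number limits the precision.

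The members, role groups, pathway lists and alternatives were chosen with earlier results of these data known. Genes named in the text follow a rule: the 8 largest differences each way that had 1 sign in both pigs, the brightest and the most different member of each role group, and a set list. Other members, the pairs of related genes and the other pathway genes were named after their values were seen. The alternatives were no block, a crossed pairing, other filters, a higher floor, quantile normalization, median centring, averaged probesets and leaving out each array.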

Additional observations from a re-analysis of the deposited data

How the results depend on the processing

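No member passed an adjusted p of 0.05 under any alternative that kept all 4 arrays, and the smallest member value there was 0.153, with the crossed pairing. Without the replicate block the count of members past the threshold was 0, as with it, for the ER-Golgi and endosomal genes too, and the pairing changed no other member call; the crossed pairing and a filter at the 60th percentile each called 1 other pathway gene, SNAP25. The median of the ER-Golgi members, 0.10, was 0.036 under quantile normalization, 0.073 with median centring and 0.055 with averaged probesets, and that of the endosomal members, 0.01, was 0.083 under quantile normalization. Fits without 1 array had no block and left a lone array at a depth, assumed to vary like the others. They gave 0 to 1 member calls, 0 to 1 among ER-Golgi and 0 to 1 among endosomal genes, 0 to 6 other pathway genes, ER-Golgi medians of 0.016 to 0.12, endosomal medians of 0.021 to 0.089, and 83 to 98 members without overlap against 59. The extra calls were SNX10 without the shallow array of pig 1 and COPZ2 without that of pig 2. More non-overlap follows from comparing 3 arrays. Of 48 named genes, 2 changed sign under quantile normalization (SEC61B and TMED2), 1 with median centring (SEC61B) and 4 with averaged probesets (RAB1A, RAB8A, SEC61A1 and VPS18), where probesets too dim for the filter enter the averages of RAB1A and RAB8A. With 1 array left out 7 changed sign without shallow pig 1, 1 without shallow pig 2, 3 without deep pig 1 and 2 without deep pig 2. Signal near the absent controls limits SEC31B, SNX8 and SNX11. Calls over the whole array, the background of the member counts, depended strongly on these choices: 49 probesets passed with the block, 0 without it, 202 with the crossed pairing, 0 without a filter, 217 with the filter at the 60th percentile, 6 with the higher floor, 93 under quantile normalization, 18 genes or unnamed probesets with averaged probesets, and 0 to 1597 with 1 array left out (1597 without shallow pig 2).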
